A study of Mus musculus with 3 samples.

Results

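The nuclear genes of the respiratory chain and ATP synthase were examined in the open chromatin of long-term hematopoietic stem cells (HSCs). Members were the protein-coding genes of chromosomes 1 to 19 in the GENCODE vM21 annotation whose symbol begins with Ndufa, Ndufb, Ndufc, Ndufs, Ndufv, Uqcr, Cox4, Cox5, Cox6, Cox7, Cox8 or Atp5. The rule found 87 gene records with 86 symbols among 20807 protein-coding records, because *Atp5o* has 2 records. It uses names and positions only, and no measured value. *Cox7b*, *Ndufa1* and *Ndufb11* lie on the X chromosome and fall outside it, and it takes in 8 assembly factors of complex I (Ndufaf genes), which are not subunits.

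All values come from 1 preparation of wild-type bone marrow of female C57BL/6 mice aged 8 weeks, whose number the record and the methods do not state. Cells were enriched for c-Kit, sorted as LSK CD48- CD150+ CD34- HSCs, and profiled by DOGMA-seq, which reads open chromatin (ATAC), RNA and antibody tags from the same cell barcodes. There was 1 library of each kind and no treatment, so no value has a replicate, no test between conditions was possible, and every interval below is an exact 95% interval of counting error only. The RNA counts of single genes were not used here, so the text describes promoters and not expression.

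The respiratory chain passes electrons from NADH and succinate to oxygen and pumps protons across the inner mitochondrial membrane, and ATP synthase (complex V) uses the proton gradient to make ATP. Complexes I, III, IV and V hold subunits encoded by mitochondrial DNA together with the nuclear-encoded ones studied here, so both genomes must supply parts. HSCs are known for relying little on oxidative phosphorylation while quiescent, and for depending on it more when they begin to divide and differentiate. Several subunits of cytochrome c oxidase (complex IV) exist as isoforms, with 1 gene used in most tissues and another in heart and skeletal muscle, lung or testis.

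Of 3757 called cells, 3108 had more than 3000 fragments in peaks and were used. They held 36439576 fragments on chromosomes 1 to 19, with 3977 to 194399 fragments per cell and a median of 11457. Of 8 HSC markers, 6 had open promoters (among them *Hlf*, *Mecom*, *Kit*, *Procr* and *Tek*), whereas *Slamf1*, which encodes CD150, held 132 fragments and *Ly6a*, which encodes Sca-1, held 52, both under the limit for an open promoter given below. Open promoters were found for 4 of 4 megakaryocyte and 3 of 4 erythroid markers, and for 0 of 4 markers each of B cells, T cells, neutrophils, striated muscle and testis.

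Respiratory chain promoters were open in HSCs with few exceptions. A promoter's level is the number of unique fragments with at least 1 end within 1000 bp of the start of the gene's principal transcript, summed over the passing cells. The median member held 1085 fragments, against 356 for the median protein-coding gene, and the median member stood at percentile 73.3 of all genes. A promoter was called open at 5 times the 29.6 fragments that a window of 2001 bp would hold if fragments lay evenly over the chromosomes, which is 148 fragments. By this rule 81 of 87 members were open (93.1%), against a background of 60.7% of all protein-coding promoters, and 78 of 87 reached 10 times the mean, against 53.0% of all. Among open promoters alone, the median was 1264 fragments for members and 927 for all genes.

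**Figure D1:**
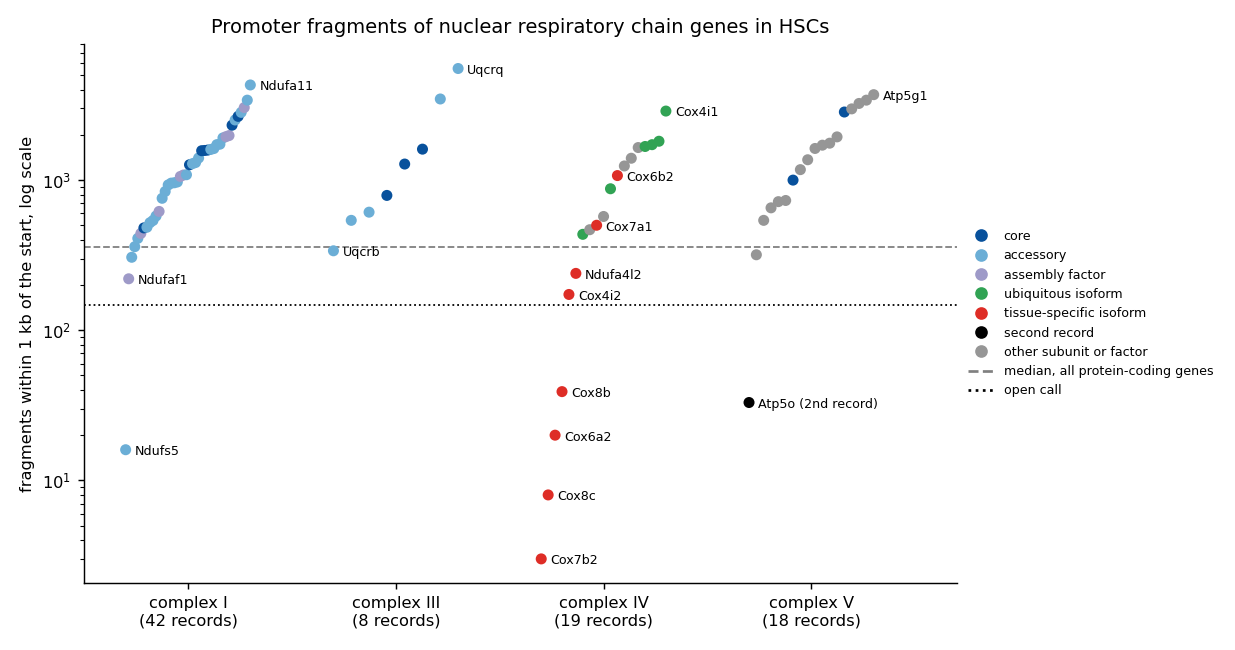
Fragments within 1 kb of the start of each member's principal transcript (log scale), by complex and colored by role; each point is 1 gene record in 1 preparation, the dashed line is the median of all protein-coding genes (356) and the dotted line the limit for an open promoter (148). Complex IV spreads from 3 to 2880 fragments, with 6 of the 8 tissue-specific isoforms under the median of all genes, while all 8 members of complex III lie between 338 and 5531.

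The median cell had a fragment at a minority of these promoters. A cell held between 6 and 351 fragments at member promoters, with a median of 36, and these covered a median of 25 of the 87 promoters, from 6 to 75. The most widely detected promoter, that of *Uqcrq*, had a fragment in 77.7% of cells (95% interval 76.2 to 79.2). Absence of a fragment in a cell is therefore no sign of a closed promoter at this depth.

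Levels ranged widely inside each complex. In complex I, which takes electrons from NADH, 41 of 42 records were open, with a median of 1174 fragments. Its 7 catalytic core subunits had a median of 1574, from 480 at *Ndufs3* to 2655 at *Ndufs7*, a ratio of 5.53 (5.02 to 6.11). Other core genes held 2319 fragments at *Ndufv1*, the NADH-binding flavoprotein, 1583 at *Ndufs1*, 1574 at *Ndufs8* and 1568 at *Ndufv2*. The 7 core promoters, whose products are all needed for catalysis, were thus within an order of magnitude of each other.

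The accessory subunits of complex I spread further. They ran from 16 fragments at *Ndufs5* to 4297 at *Ndufa11*, with a median of 971 over 27 genes. The window of *Ndufa11* holds a start of *Vmac* 82 bp away on the other strand, 23.3% of its ends lay within 250 bp of the start and the densest 50-bp bin was about 675 bp upstream. With 500 bp to each side *Ndufa11* held 2035 fragments, under *Ndufv3* with 2712 and *Ndufa6* with 2475. *Ndufa13* held 3404, but only 7.90% of the ends in its window lay within 250 bp of its start, and starts of *Yjefn3*, 154 bp upstream on the same strand, and *Tssk6*, 374 bp downstream on the other, share the window. With 500 bp to each side *Ndufa13* held 894. The assembly factors, which help to build the complex but do not stay in it, had a median of 1068, from 220 at *Ndufaf1* to 3039 at *Ndufaf8*. The low value of *Ndufs5* belongs to the chosen start: another annotated start of the gene, 1855 bp upstream, held 1059 fragments.

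Complex III, which passes electrons from ubiquinol to cytochrome c, was open at 8 of 8 members. *Uqcrq*, a small accessory subunit, had the highest level of all members with 5531 fragments (5390 to 5680), and *Uqcrb*, another small subunit, the lowest of the complex with 338, a ratio of 16.4 (14.7 to 18.3). The catalytic Rieske protein gene *Uqcrfs1* held 1606 fragments, *Uqcrc1* 1278 and *Uqcrc2* 790. *Uqcrh*, the hinge protein, held 3466. *Uqcrq* shares its window with a start of *Gdf9*, the gene of an oocyte growth factor, 196 bp away on the other strand, and the parts of the 2 genes in the signal cannot be told apart.

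ATP synthase had the highest median of the 4 complexes, with 1494 fragments over 18 records and 17 open. The records taken in by name include *Atp5s* with 1707 fragments, classed here as coupling factor B and named *Dmac2l* in RefSeq. With 500 bp to each side the lead of ATP synthase was gone, with a median of 1047 against 1048 (1047.5) for complex I. The F1 beta gene *Atp5b*, which carries the catalytic site, held 2838 fragments and the F1 alpha gene *Atp5a1* 999, a ratio of 2.84 (2.64 to 3.06). The smaller F1 subunits ranged from 539 at *Atp5e* to 3404 at *Atp5d*, whose densest bin was about 825 bp upstream of the start. With 500 bp to each side *Atp5d* held 1294, under *Atp5c1* with 1886. Another annotated start of *Atp5d*, 858 bp upstream and near its densest bin, held 3485 fragments within 1000 bp. The peripheral stalk genes held 2978 at *Atp5f1*, 1760 at *Atp5j*, 1623 at *Atp5h* and 718 at *Atp5o*. The order depended on the window: with 500 bp to each side *Atp5f1* was the lowest with 476, and the others held 938, 1556 and 665. The low value of *Atp5f1* belongs to the chosen start, as its densest bin was about 775 bp into the gene. Another annotated start of *Atp5f1*, near that bin, held 3087 fragments in the wider window. A start of *Wdr77* on the other strand, 585 bp from the chosen start, lies between them. The fragments there cannot be assigned to either gene. The second record of *Atp5o*, which begins inside the gene, held 33 and was not open.

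The c ring, the turning part of ATP synthase, is built from 1 mature protein that 3 genes encode with different leader peptides. *Atp5g1* held 3703 fragments (3580 to 3820), *Atp5g2* 3237 (3130 to 3350) and *Atp5g3* 731 (679 to 786). The first was 1.14 times the second (1.09 to 1.2) and 5.07 times the third (4.68 to 5.49). The 3 genes were therefore not equally open in HSCs, with *Atp5g3* well under the other two.

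Complex IV had the lowest median, 572 fragments over 19 records, and 15 of them were open. It divided by isoform: the 6 widely used isoform genes were all open with a median of 1696, while the 8 tissue-specific ones had a median of 106 and 4 of 8 were open. The 4 subunits with no partner in the list ranged from 467 at *Cox7c* to 1646 at *Cox5a*. The supercomplex factor *Cox7a2l* held 1397.

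For 6 of the 7 isoform pairs, the widely used gene held more fragments, with an interval above 1. *Cox8a* (1720) stood 44.1-fold above *Cox8b* (39), the heart, muscle and brown fat isoform (32.1 to 62.2). It stood 215-fold above the testis isoform *Cox8c*, which held 8 fragments (109 to 499). *Cox6a1* (1813) stood 90.7-fold above the muscle isoform *Cox6a2* with 20 fragments (58.5 to 149). These ratios depended on the window: with 500 bp to each side the log2 ratio went from 5.46 to 6.37 for *Cox8b*, from 7.75 to 8.69 for *Cox8c* and from 6.50 to 7.29 for *Cox6a2*, whose windows then held 20, 4 and 11 fragments. These muscle and testis isoforms lay under the mean of 29.6 fragments for a window or just above it, and *Cox7b2*, the testis isoform of subunit 7B, held 3 fragments (0.619 to 8.77).

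The low-oxygen isoforms were higher but not centered on their principal starts. *Cox4i2*, the lung isoform of subunit 4, held 173 fragments against 2880 for *Cox4i1*, a ratio of 16.6 (14.3 to 19.5). Only 7.07% of the fragment ends in its window lay within 250 bp of the start, and the densest 50-bp bin was about 975 bp upstream. With a window of 500 bp to each side *Cox4i2* held 36 fragments and was no longer open. Another annotated start of *Cox4i2*, near the densest bin, held 202 fragments in the wider window. *Ndufa4l2*, the hypoxia-induced relative of *Ndufa4*, held 239 against 1673, a ratio of 7.00 (6.11 to 8.05), with 19.8% of ends within 250 bp. At *Cox4i1*, by comparison, 74.4% of the ends lay within 250 bp. The *Cox4i1* window holds starts of *Emc8* and *Gm27021*, 101 and 143 bp away on the other strand. That of *Ndufa4* holds a start of *Phf14*, 326 bp away on the other strand. Fragments in these shared windows cannot be assigned to either gene.

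In 2 pairs the tissue-specific isoform had an open promoter centered on its start. *Cox7a1*, the heart and muscle isoform of subunit 7A, held 500 fragments (457 to 546) and was detected in 13.5% of cells. *Cox7a2* held 875, a ratio of 1.75 (1.57 to 1.96). The cuts at *Cox7a1* were as concentrated as at many widely used genes, with 79.8% of ends within 250 bp.

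*Cox6b2*, the testis isoform of subunit 6B, was the 1 pair in the opposite order. Its promoter held 1071 fragments (1010 to 1140) and that of the widely used *Cox6b1* held 435 (395 to 478), so *Cox6b1* over *Cox6b2* was 0.406 (0.362 to 0.454). *Cox6b2* was detected in 25.6% of cells (24.1 to 27.2) and *Cox6b1* in 11.8% (10.7 to 13.0). No start of another annotated gene lay within 1000 bp of either gene's start, 61.8% of the *Cox6b2* ends were within 250 bp, and *Cox6b1* over *Cox6b2* stayed under 1 with every window, start and cell set tried. The testis markers *Prm1*, *Prm2*, *Tnp1* and *Tnp2* held 26, 28, 1 and 92 fragments.

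**Figure D2:**
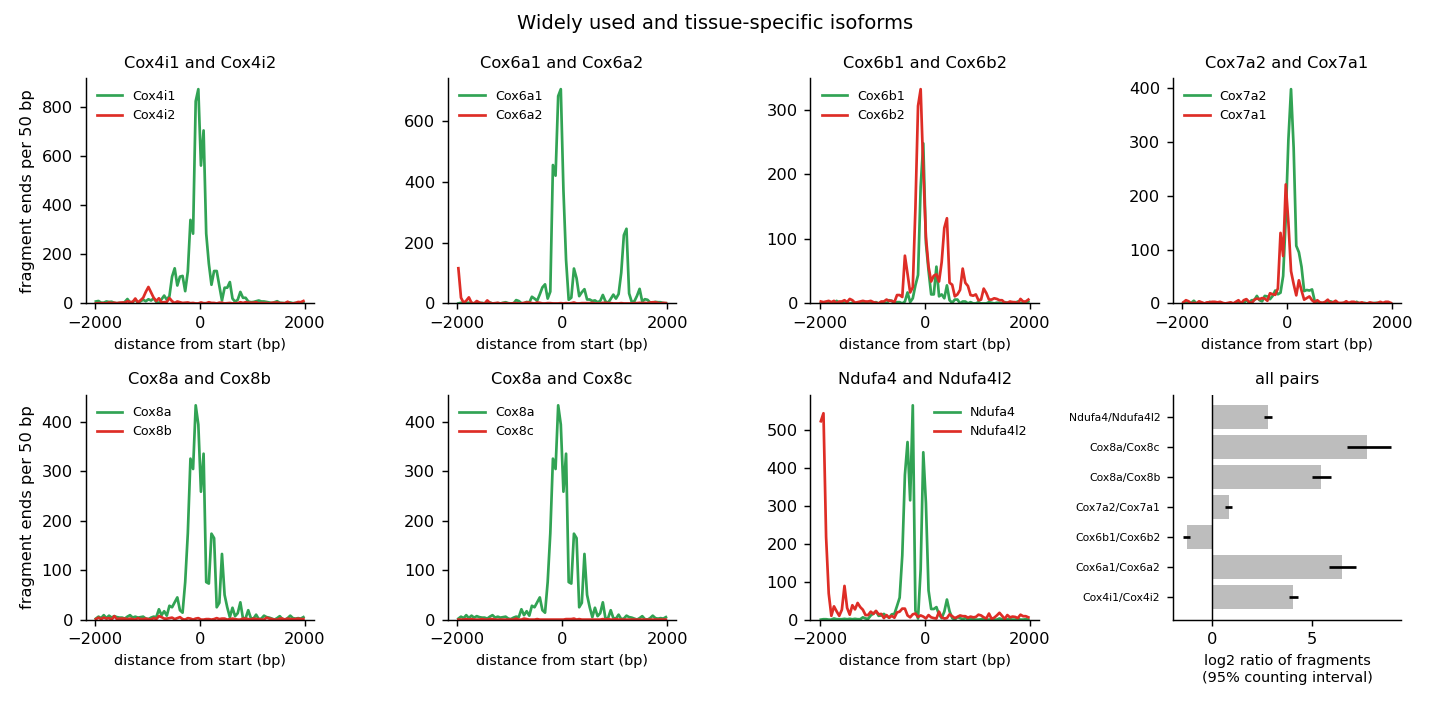
Fragment ends per 50-bp bin from 2000 bp before to 2000 bp after the principal start, for the widely used (green) and the tissue-specific gene (red) of 7 pairs, with the log2 ratio of fragments within 1 kb and its 95% counting interval in the last panel. *Cox6b2* and *Cox7a1* show a peak at their start, and *Cox6b1*/*Cox6b2* is the 1 ratio under 0 on the log2 scale. The signal near *Cox4i2* lies about 975 bp upstream of its principal start, near another annotated start of the gene.

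The promoters of these isoforms are printed from 250 bases before to 50 after the RefSeq start in GRCm38.p6, 5′ to 3′ in the direction of the gene, to set an open and a closed isoform (*Cox8a* and *Cox8b*) and a pair with both genes open (*Cox6b1* and *Cox6b2*) side by side. Capitals mark exact matches on either strand to the core strings of NRF1 (GCGCATGC), ETS factors such as GABP (CCGGAAG), YY1 (AAGATGG) and a TATA box (TATAAA). *Ndufa11* and *Ndufs7* are added as an NRF1 and a YY1 case.
Cox8a, chr19:7217567-7217866, minus strand: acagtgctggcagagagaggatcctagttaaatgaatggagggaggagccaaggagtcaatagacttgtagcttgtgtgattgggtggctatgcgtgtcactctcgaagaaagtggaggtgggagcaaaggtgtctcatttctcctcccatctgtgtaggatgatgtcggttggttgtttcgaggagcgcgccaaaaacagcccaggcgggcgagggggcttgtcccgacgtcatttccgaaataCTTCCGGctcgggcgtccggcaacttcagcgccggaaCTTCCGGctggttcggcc
Cox8b, chr7:140900397-140900696, minus strand: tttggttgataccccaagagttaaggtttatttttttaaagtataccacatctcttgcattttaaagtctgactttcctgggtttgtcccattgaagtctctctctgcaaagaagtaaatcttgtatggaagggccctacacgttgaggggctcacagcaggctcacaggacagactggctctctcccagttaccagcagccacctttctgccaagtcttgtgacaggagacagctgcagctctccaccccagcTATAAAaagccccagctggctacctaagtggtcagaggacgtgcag
Cox6b1, chr7:30626065-30626364, minus strand: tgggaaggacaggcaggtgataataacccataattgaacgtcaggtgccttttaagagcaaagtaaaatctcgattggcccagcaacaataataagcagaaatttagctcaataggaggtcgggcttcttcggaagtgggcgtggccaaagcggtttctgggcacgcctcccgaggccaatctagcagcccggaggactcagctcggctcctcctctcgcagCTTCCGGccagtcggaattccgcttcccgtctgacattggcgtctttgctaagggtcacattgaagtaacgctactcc
Cox6b2, chr7:4753045-4753344, minus strand: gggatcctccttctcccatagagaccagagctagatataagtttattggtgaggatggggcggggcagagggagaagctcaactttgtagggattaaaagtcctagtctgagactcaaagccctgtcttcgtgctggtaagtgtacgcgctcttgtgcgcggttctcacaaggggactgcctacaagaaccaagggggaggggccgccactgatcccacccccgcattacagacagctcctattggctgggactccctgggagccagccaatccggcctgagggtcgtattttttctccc
Ndufa11, chr17:56717512-56717811, plus strand: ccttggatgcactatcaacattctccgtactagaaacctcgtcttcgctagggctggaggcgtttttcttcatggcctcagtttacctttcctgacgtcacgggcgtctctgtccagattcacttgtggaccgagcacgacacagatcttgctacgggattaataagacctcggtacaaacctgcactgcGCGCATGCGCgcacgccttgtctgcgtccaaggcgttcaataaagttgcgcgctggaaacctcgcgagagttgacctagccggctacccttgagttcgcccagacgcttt
Ndufs7, chr10:80249199-80249498, plus strand: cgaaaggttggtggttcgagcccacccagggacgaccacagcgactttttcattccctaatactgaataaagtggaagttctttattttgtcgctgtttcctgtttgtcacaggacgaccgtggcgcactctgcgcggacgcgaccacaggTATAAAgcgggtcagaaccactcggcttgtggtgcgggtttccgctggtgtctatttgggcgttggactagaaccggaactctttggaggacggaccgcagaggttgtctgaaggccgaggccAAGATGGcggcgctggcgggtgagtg

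The *Cox8a* promoter holds the ETS string at 2 places, with the first base 5 bases before the start and at base 33 after it. *Cox8b* holds none of the NRF1, ETS or YY1 strings and has TATAAA from base 5 after its start. *Cox6b1* holds the ETS string from 28 bases before its start, and *Cox6b2*, the more open of the pair, holds none of the 4 strings. In *Ndufa11* the NRF1 string was met on both strands, overlapping in a palindrome that begins 60 bases before the start.

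Over the members with a RefSeq promoter, 70 of 87 records, the strings of regulators known to act on respiratory genes were found in a larger share of promoters than over all genes. The NRF1 string was in 11 of 70 member promoters (15.7%), against 3.88% of 15484 protein-coding promoters matched the same way and 2.70% of the 31396 promoters of chromosomes 1 to 19 in the table. The ETS string was in 15 (21.4%), against 12.9% and 9.0%, and the YY1 string in 11 (15.7%), against 6.49% and 6.38%. The ERR string AAGGTCA, of the estrogen-related receptors, was in 7 (10.0%), against 3.86% and 4.69%. Among promoters open in these cells, the NRF1 string was in 16.4% of member promoters against 5.57% of all, the ETS string in 22.4% against 18.6%, the YY1 string in 16.4% against 7.12% and the ERR string in 8.96% against 2.69%. The strings were read at RefSeq starts, while open calls and fragments, here and below, belong to the principal starts. These can lie apart: *Ndufs5*, counted as not open, has its RefSeq start 1860 bp from the principal one.

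For the other strings the shares went both ways. The SP/KLF string GGGCGG was in 45.7% of member promoters, against 49.7% of protein-coding promoters. The NFY string CCAAT was in 42.9% against 38.2%, TGACGTCA of CREB and ATF in 5.71% against 2.53% (4 promoters), and TATAAA in 10.0% against 12.9%. Among open promoters the order for TATAAA turned, with 7.46% of members against 6.61% of all, while NFY stood at 43.3% against 38.0%, CREB and ATF at 5.97% against 3.52% and SP/KLF at 46.3% against 68.8%. A match is only a match of letters and was not tested as a binding site. Some strings can overlap in a promoter, and 17 records had no entry, among them *Cox4i2*, *Ndufa2*, *Cox6c*, *Atp5mpl*, *Uqcrb*, *Ndufb9*, *Atp5a1*, *Ndufs1*, *Cox6a2*, *Uqcrc2*, *Cox4i1*, *Ndufa4l2*, *Cox8c*, *Uqcrq*, *Ndufaf6* and the second *Atp5o* record.

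The YY1 string lay mostly just inside the gene. In 9 of the 11 member promoters that hold it, it lay after the start and on the sense strand (81.8%), as at base 25 of *Ndufs7*, against 28.3% of the 1005 protein-coding promoters with the string. Members with the YY1 string had a median of 538 fragments and the others 1365. The medians with and without the string were 731 and 1286 for ERR, 839 and 1286 for TATAAA, 954 and 1286 for ETS and 1278 and 1286 for NRF1. They were 1482 and 1260 for SP/KLF, 1586 and 1082 for NFY and 1670 and 1163 for CREB and ATF. Member promoters had a median GC content of 57.3%, the same as all promoters (57.3%) and under that of open promoters (62.0%). Their CpG ratio, the CG pairs observed over those expected from the bases, had a median of 0.831 against 0.624 for all and 0.787 for open promoters, and it was 0.382 at the 4 tissue-specific isoforms with an entry.

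Member promoters often lay back to back with another gene. A start of another protein-coding gene was within 1000 bp for 29 of 87 members (33.3%), against 12.8% of all genes, and for 22 it was at or upstream of the member's start on the other strand (25.3% against 8.66%). *Ndufa7* and *Rps28*, a ribosomal protein gene, begin 10 bp apart, *Ndufs1* and *Eef1b2*, a translation elongation factor gene, 3 bp apart, and *Atp5j* shares its window with *Gabpa*, a subunit of GABP. Members with a shared window had a median of 1673 fragments and the 58 others 902, with 1323 and 256 for all genes. Fragments there cannot be assigned to either gene, and 52 of the 58 members with a window of their own were open, against 56.2% of all genes with a window of their own.

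Cuts were concentrated close to the start. Averaged over the 81 open members, fragment ends peaked in the 50-bp bin just before the start, at 339 ends per gene and bin, 98.2 times the level in the outer 500 bp on each side. For all open promoters the peak was 254 and 45.5 times the outer level. Fragments under 150 bp, which come largely from DNA free of nucleosomes, made up 58.6% of those at members (58.4 to 58.9) and 56.8% at all promoters. Among the widely used isoforms the share was 61.3% and among the tissue-specific ones 48.2% (46.0 to 50.4). The highest share at a member was 76.1% at *Ndufa5* and the lowest, among those with at least 100 fragments, 20.1% at *Ndufa4l2*.

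**Figure D3:**
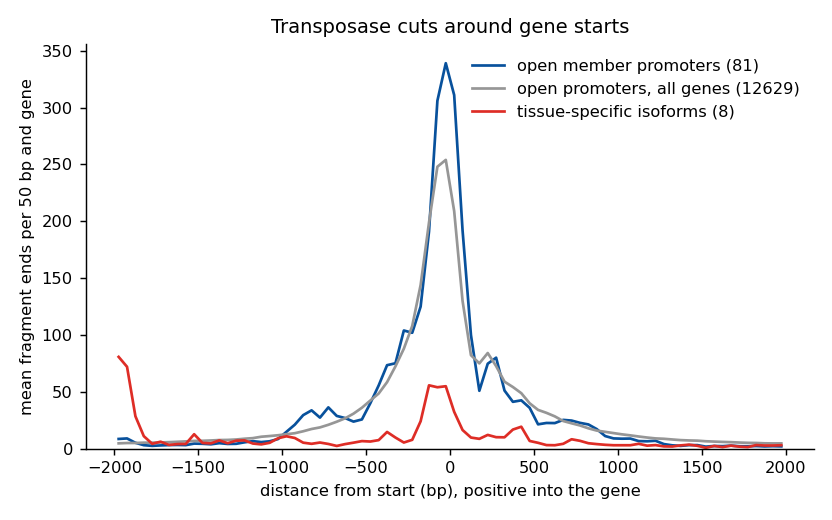
Mean number of fragment ends per 50-bp bin and gene from 2000 bp before to 2000 bp after the principal start, for 81 open member promoters, 12629 open promoters of all genes and the 8 tissue-specific isoforms. Open members peak at 339 ends just before the start, all open promoters at 254, and the rise near 2000 bp upstream of the tissue-specific isoforms comes mostly from *Ndufa4l2*.

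The other nuclear genes of mitochondrial energy production were open at similar levels. All 4 succinate dehydrogenase genes (complex II) were open, from 879 at *Sdhd* to 1673 at *Sdhb*. Of the cytochrome c genes, *Cycs* held 3313 and the testis form *Cyct* 3. *Cyc1*, the gene of cytochrome c1, a core subunit of complex III that the name rule leaves out, held 726. All 12 complex IV assembly genes, 13 citric acid cycle genes and 13 genes of mitochondrial DNA upkeep and expression were open, with medians of 1163, 942 and 1315. They ran from 434 at *Cox16* to 4305 at *Cox20*, from 358 at *Idh3b* to 4414 at *Mdh2*, and from 634 at *Slirp* to 3668 at *Polg*, the mitochondrial DNA polymerase. Among the regulators, *Yy1* held 5121 and the coactivator *Ppargc1a* 280, with 8 of 8 open. Mitochondrial ribosomal protein genes had a median of 909 over 78 records and cytosolic ones 1728 over 72, so members (1085) lay between them. *Mrps22* held 87 and *Mrps18b* 7238, and *Rps14* held 274 and *Rpl13a* 4181.

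The share of ATAC reads from mitochondrial DNA differed widely between cells. It is counted from the reads of each barcode that mapped to the mitochondrial genome, which carries the other subunits of the same complexes, over all its reads. The median was 0.231%, with quartiles of 0.0438% and 0.607%, 237 cells at 0 and a maximum of 29.3%. It reflects mitochondrial DNA that stayed in the cell after permeabilization as well as its amount, and the 2 cannot be told apart.

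Cells were compared at matched depth. Within each of 10 bins of fragments, cells were split into low, middle and high mitochondrial share, which gave 1030 low and 1030 high cells with median shares of 0.00971% and 0.898%. Their median fragments were 11459 and 11462, their median RNA UMIs 3728 and 3913 (3912.5), and promoters took 45.9% and 45.8% of their fragments. The 2 sets were thus alike in these measures.

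Member promoters took almost the same share of promoter fragments in both. It was 0.697% in low cells (38357 of 5502048 fragments) and 0.711% in high cells (39375 of 5537849), a ratio of 1.020 (1.006 to 1.034). The ratio was 1.019 for complex I, 1.011 for complex III, 1.010 for complex IV and 1.031 for complex V, and only the last interval (1.003 to 1.061) lay above 1. Within complex V it was 1.154 for the genes of the membrane part (1.063 to 1.254), 1.032 for both the catalytic alpha and beta genes (0.955 to 1.116) and the c ring (0.977 to 1.090), 1.000 for the smaller F1 subunits (0.939 to 1.066) and 0.995 for the peripheral stalk (0.939 to 1.054). For the mitochondrial ribosome it was 0.999 (0.983 to 1.014), for the cytosolic ribosome 1.004 (0.991 to 1.017), for the citric acid cycle 0.978 (0.948 to 1.010), and for complex II 0.940 (0.875 to 1.010). It was 1.085 for the HSC markers (1.021 to 1.153), 1.064 for the genes of cytochromes c and c1 (0.987 to 1.147), 1.028 for the regulators (0.990 to 1.067) and 1.025 for complex IV assembly (0.990 to 1.061). Several lists thus lay as far from 1 as the members or farther. A ratio as small as 1.020 is a difference of 2 parts in 100, and without replicates it cannot be set against the spread between preparations.

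**Figure D4:**
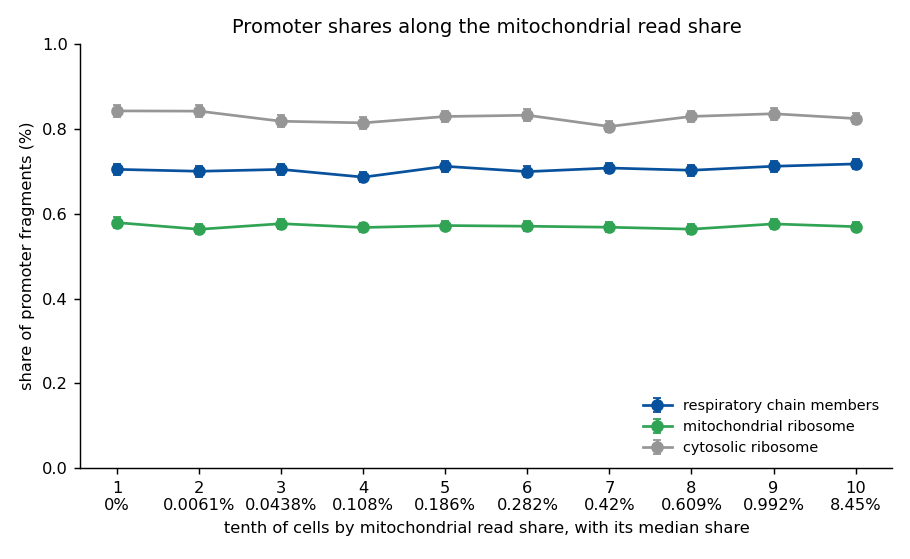
Share of all promoter fragments at member promoters and at promoters of mitochondrial and cytosolic ribosomal protein genes, in 10 equal groups of cells ordered by mitochondrial read share, whose median is under each group; bars are 95% counting intervals. Member shares run from 0.686% in the fourth group to 0.717% in the last, where the median mitochondrial share was 8.45%.

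Without matching, the member share was 0.705% in the tenth of cells with the lowest mitochondrial share and 0.717% in the tenth with the highest (0.705 to 0.730), although the median mitochondrial share went from 0% to 8.45%. Over the 3108 cells, Spearman's rho between member share and mitochondrial share within the bins was 0.046. It was 0.004 for the mitochondrial and -0.001 for the cytosolic ribosome. The cells share 1 library, the counts are sparse, and these values are given as a description only. The variance of the member share over cells was 1.27 times that expected from counting, between 1.23 for the mitochondrial and 1.34 for the cytosolic ribosome.

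Few members differed between the 2 sets of cells. Among 71 members with at least 300 fragments in both sets together, 3 were past 1.2-fold higher in high cells, against a background of 2.46% of 9433 genes, and 2 past 1.2-fold lower, against 2.23%. The median log2 ratio was 0.03 over members and 0.00 over all tested genes, and 47 of 71 members (66.2%) were above 0, against 50.5% of all genes. The counts past 1.2-fold, 3 and 2, are near the background for a list of 71 genes. The share of members above 0 was higher than that of all genes, and this difference was not tested.

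The members with the highest log2 ratio of high over low cells were *Ndufb7*, an accessory subunit of complex I, at 0.43 (302 fragments against 223, interval 0.17 to 0.68), and *Atp5k*, subunit e of ATP synthase, at 0.38 (248 against 189, 0.10 to 0.66). *Ndufaf5* at 0.28, *Atp5e* at 0.24 and *Atp5a1* at 0.22 followed, and the intervals of the first 2 of these reached below 0. The lowest were *Atp5o*, the subunit that confers sensitivity to oligomycin, at -0.40 (205 against 268, -0.67 to -0.13), and *Ndufa12*, a complex I accessory subunit, at -0.33 (143 against 179, -0.66 to -0.01). *Ndufs3* at -0.20, *Cox7c* at -0.17 and *Cox7a2* at -0.15 had intervals that held 0. Subunits of 1 complex thus stood at both ends of the order. These are the extremes of 71 values with wide intervals, and none has a replicate.

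**Figure D5:**
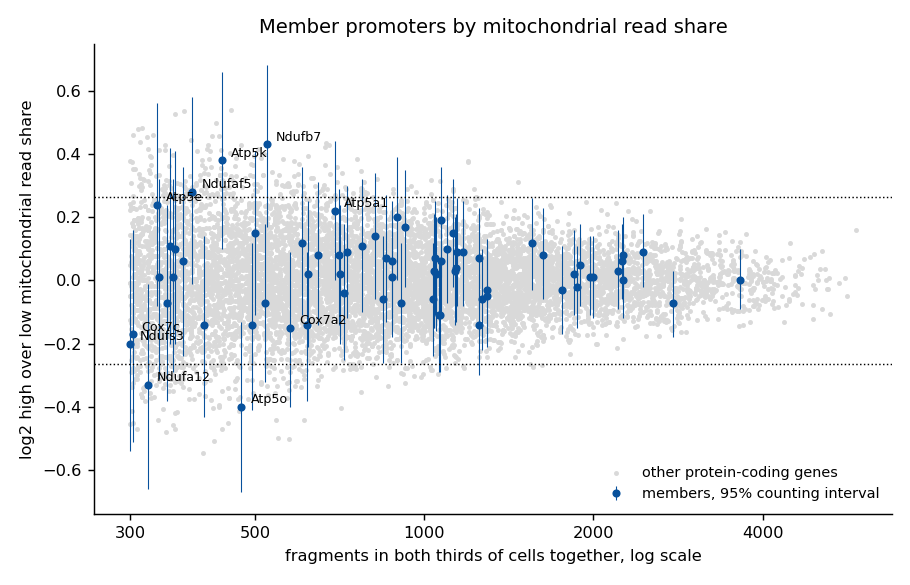
log2 ratio of high over low mitochondrial read share for each gene with at least 300 fragments, against the fragments in both sets of cells (log scale); members are blue with 95% counting intervals, other genes grey, and dotted lines mark 1.2-fold. Of 71 members 5 lie outside the lines (Ndufb7, Atp5k and Ndufaf5 above, Atp5o and Ndufa12 below), and the spread narrows with depth as it does for other genes.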

How the data were processed

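The authors mapped reads with Cell Ranger ARC 2.0.2 to mm10 and deposited unnormalized counts of reads, UMIs and fragments per barcode, and the position of each unique fragment. The pipeline removes duplicates and calls cells from ATAC and RNA together. Its file names no mitochondrial contig, so mitochondrial reads were taken from the per-barcode counts. Whether ends were shifted for the transposase offset, the tool's default, is not stated. Fragments per barcode equaled the deposited count for 604586 of 605049 barcodes, and all 3757 called cells had both ATAC fragments and RNA UMIs. Members and lists were chosen with earlier results of these data known.

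Fragments were counted at principal transcript starts (APPRIS principal, then transcript support level, then length) of GENCODE vM21 on GRCm38, the same build. A fragment with an end in the windows of several genes was counted for each. Doublets were kept. Python 3.11.15, numpy 2.4.6, scipy 1.17.1 and pandas 2.3.3 were used, and matplotlib 3.10.9 drew the plots. Intervals are exact Poisson, binomial or conditional binomial. Steps were tested on simulated data. Named genes are the isoform pairs, the c-ring genes, the catalytic core, the 5 highest and lowest members by fragments or by the ratio between high and low mitochondrial share, and the highest and lowest of each list. Some genes of these lists are not reported here. The ADT counts were not used. Alternatives covered windows, starts, cells, bins and filters.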

Additional observations from a re-analysis of the deposited data

How the results depend on the processing

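Of 242 values under alternative settings, 220 stayed within the counting interval of the reported value or, for counts, within 1.5-fold of it. Without members that share a window, 52 of 58 were open. Members past 1.2-fold numbered 5 of 71 (4.69% of all tested genes). They were 3 of 67 without the 5% of cells with most fragments (4.97% of genes), 3 of 78 when cells were split at the median share (3.34%), 8 of 81 with at least 100 fragments (10.3%) and 12 of 87 with no filter on fragments (26.9%). With the split at the median *Ndufs3* turned to 0.05 on the log2 scale, and the cause was not tested. The short-fragment share at members was 51.8% under 120 bp (50.9% for all genes), the NFY string was in 28.6% of member promoters from 100 bases before the start (24.5% of all), and the variance ratio was 1.05 with each cell thinned to 3000 fragments. The ratio of member share between high and low mitochondrial cells stayed inside its interval under every alternative, including 1.018 without cells over 5% mitochondrial reads, an alternative chosen after seeing the data. With 500 bp to each side, the log2 ratio of *Cox4i1* over *Cox4i2* went from 4.06 to 6.24, *Cox6a1* over *Cox6a2* from 6.50 to 7.29, *Cox8a* over *Cox8b* from 5.46 to 6.37, *Cox8a* over *Cox8c* from 7.75 to 8.69 and *Ndufa4* over *Ndufa4l2* from 2.81 to 3.56. *Cox4i1* over *Cox4i2* moved the other way, to 3.83, at the 5′ end of the gene record and also at the annotated start with the most fragments. It was 4.33 with each end counted. No replicate can be left out, as there is 1 preparation. No paired analysis was possible because each group holds 1 library. Promoters with few fragments limit single-gene ratios: at 300 fragments in both sets, the intervals span more than 1.2-fold to either side.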

Other observations

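Split by RNA UMIs in place of mitochondrial reads, within the same bins of fragments, member promoters took 1.009 times the share in cells with many UMIs that they took in cells with few (0.995 to 1.023). The ratio was 1.022 for complex I (1.002 to 1.043) and 0.969 for complex V (0.942 to 0.996), with 0.928 for the peripheral stalk genes (0.877 to 0.983). Genes of mitochondrial DNA upkeep and expression stood at 1.082 (1.047 to 1.119) and megakaryocyte markers at 1.163 (1.074 to 1.260).

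Member promoters took 0.705% of promoter fragments in passing cells (0.701 to 0.709), 0.695% in the 649 called cells at or under 3000 fragments in peaks (0.673 to 0.717) and 0.697% in 601292 barcodes not called as cells (0.680 to 0.714). Promoters as a whole took a smaller part of the fragments in the latter, 0.265 per fragment against 0.459 in passing cells.

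The 6 member records under the limit for an open promoter were *Cox7b2*, *Cox8c*, *Ndufs5*, *Cox6a2*, *Cox8b* and the second *Atp5o* record. Several principal starts lay away from the densest cuts, although each of these windows held at least 318 fragments. The share of ends within 250 bp was 3.16% at *Atp5f1*, 4.10% at *Atp5j2*, 7.90% at *Ndufa13* and 8.50% at *Ndufa5*. The RefSeq start lay 836 bp into the gene at *Atp5f1*, 521 bp at *Atp5j2* and 323 bp at *Ndufa5*. The densest bins of these genes were about 775, 475 and 325 bp into the gene. At *Ndufa13* the RefSeq start lay 538 bp into the gene, but the densest bin was about 725 bp upstream.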
